A study of Mus musculus with 63 samples.

Results

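Transcription factors that set up and maintain the secretory cells of the small intestine were followed through every count table of the series: Atoh1, Gfi1, Spdef, Foxa3, Creb3l1, Creb3l4, Bhlha15, Xbp1, Sox9 and Sox4. These 10 genes were chosen by name out of 54752 in the tables and each passed the filter on low counts in every comparison. The series measured polyadenylated RNA in mouse small intestinal organoids and intestinal epithelial cells (IECs) after loss of CDK8, CDK19 or both, the paralogous kinases of the Mediator complex. All mice were on the C57BL/6 strain. CreERT2, a recombinase that acts after tamoxifen or its metabolite 4-hydroxytamoxifen (4-OHT), was driven by the Villin promoter, which is active in intestinal epithelium.

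The groups were as follows, with 3 libraries each. On day 7 after 24 h in 100 nM 4-OHT, 5 organoid lines were collected: VillinCreERT2 with intact kinases, VillinCreERT2 with floxed Cdk8 (CDK8iIEC-KO), Cdk8fl/fl/Cdk19-/- without the Cre driver, C57BL/6 without any engineered allele, and VillinCreERT2 with both floxed Cdk8 and Cdk19-/- (CDK8iIEC-KO/Cdk19-/-). A different organoid line of that last genotype received 4-OHT or 0.001% ethanol (EtOH) and was collected on days 3, 5, 7 and 10. The same genotype was grown for 10 days in Wnt3-conditioned medium (Wnt3-CM) after 4-OHT or EtOH. Organoids with VillinCreERT2, floxed Cdk8 and 1 kinase-dead Cdk19 allele over a null allele (D173A) were collected 7 days after 4-OHT or EtOH. The IECs came from mice that had received tamoxifen (80 mg per kg) on 5 consecutive days and were taken 14 days after the last dose, either VillinCreERT2 or CDK8iIEC-KO/Cdk19-/-. In the time course, Wnt3-CM and D173A cultures the EtOH controls already lacked intact Cdk19 on both alleles, so 4-OHT against EtOH compares CDK8 present with CDK8 deleted on that background, and exposure to 4-OHT with active Cre cannot be told apart from the deletion there. Each organoid genotype in a comparison was 1 line, so the p-values measure the spread between cultures or wells of a line.

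In the intestinal crypt, a fall in Notch signaling lets a progenitor express Atoh1, the basic helix-loop-helix factor that commits it to the secretory fate. Gfi1 acts after Atoh1 and keeps cells out of the enteroendocrine fate, Spdef and Foxa3 mature goblet cells, and Sox9 is needed for Paneth cells and is also present in stem and tuft cells. Creb3l1 and Creb3l4 are membrane-bound factors of the endoplasmic reticulum and Golgi, Xbp1 is the factor activated by splicing in the unfolded protein response, and Bhlha15 (also called Mist1) scales up the secretory apparatus. Sox4 marks early secretory progenitors and promotes tuft cells.

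By the GENCODE vM21 annotation of GRCm38, Atoh1 lies on chromosome 6 at 64729125-64731245 (plus strand) and is a single exon of 2121 bases. Gfi1 (chromosome 5, 107716657-107726036, minus) and Bhlha15 (chromosome 5, 144190286-144194441, plus) share a chromosome but lie far apart. Spdef is on chromosome 17 at 27714352-27728955 (minus) and Foxa3 on chromosome 7 at 19013284-19023538 (minus). Creb3l1 spans chromosome 2 at 91982328-92024502 (minus) and Creb3l4 chromosome 3 at 90237500-90243512 (minus). Xbp1 (5520659-5525893, plus) and Sox9 (112782224-112787760, plus) are both on chromosome 11, and Sox4 is on chromosome 13 at 28948919-28953713 (minus). Exons of Sox4 overlap 2616 bases of the antisense transcript Gm26735, and Gfi1 overlaps 101 exon bases of the antisense A430072P03Rik. In the 39 libraries of the 5-line experiment and the time course these had 0 and 10 counts in all. Whether the counting used strand is not given in the sources used here.

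RefSeq promoter windows (GRCm38.p6, 300 bases each, most of them before the annotated start) were found for 8 of the 10 factors and not for Creb3l1 or Sox9. Each window was searched on both strands for CAGCTG (an E-box bound by many tissue-specific basic helix-loop-helix factors), CACGTG (the E-box of Myc and its relatives), TGACGTG (the core bound by Creb3 and Xbp1 class factors), TGTTTAC (forkhead), AACAAT (Sox) and TATAAA. None of the 6 motifs was in the windows of Atoh1, Gfi1, Bhlha15 or Xbp1. The Spdef window held 1 TGACGTG, a motif found in 2.01% of 32851 promoters of that length, the Foxa3 window 1 TATAAA (13.6%), the Sox4 window 1 CAGCTG (16.3%), and Creb3l4 had AACAAT (10.7%) at 2 of its 3 starts. CACGTG and TGTTTAC, present in 7.15% and 3.65% of promoters, were in none of the members' windows. The windows of the first member called lower in the time course, the member never called, and the goblet regulators Spdef and Foxa3 are shown 5′ to 3′ with the matched motif in capitals.
Bhlha15, chr5:144190036-144190335 (plus): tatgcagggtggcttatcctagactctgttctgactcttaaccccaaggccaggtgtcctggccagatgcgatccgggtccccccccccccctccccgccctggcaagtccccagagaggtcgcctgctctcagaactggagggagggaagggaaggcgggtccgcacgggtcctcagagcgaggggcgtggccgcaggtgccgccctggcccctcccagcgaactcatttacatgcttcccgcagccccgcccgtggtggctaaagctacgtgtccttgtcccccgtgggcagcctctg
Xbp1, chr11:5520391-5520690 (plus): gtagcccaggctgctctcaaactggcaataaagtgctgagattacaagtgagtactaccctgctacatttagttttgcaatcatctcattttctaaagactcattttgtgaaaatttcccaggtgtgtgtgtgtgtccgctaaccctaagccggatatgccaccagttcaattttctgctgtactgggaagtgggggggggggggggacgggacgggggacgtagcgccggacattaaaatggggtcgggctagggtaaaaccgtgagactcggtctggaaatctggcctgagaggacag
Spdef, chr17:27728902-27729201 (minus): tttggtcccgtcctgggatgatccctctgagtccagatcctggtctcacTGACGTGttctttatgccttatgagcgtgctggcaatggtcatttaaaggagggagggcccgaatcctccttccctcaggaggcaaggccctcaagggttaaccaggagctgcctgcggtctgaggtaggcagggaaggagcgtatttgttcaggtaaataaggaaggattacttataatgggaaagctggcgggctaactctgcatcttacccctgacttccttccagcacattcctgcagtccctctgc
Foxa3, chr7:19023490-19023789 (minus): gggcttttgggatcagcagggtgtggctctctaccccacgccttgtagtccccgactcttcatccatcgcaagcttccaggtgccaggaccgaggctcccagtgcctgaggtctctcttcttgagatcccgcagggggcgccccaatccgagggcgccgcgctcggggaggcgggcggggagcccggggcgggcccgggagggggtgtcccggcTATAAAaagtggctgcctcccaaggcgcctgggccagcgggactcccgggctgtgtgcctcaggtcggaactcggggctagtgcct

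The libraries held 15485959 to 32909565 counts, and the member with the fewest reads, Gfi1, had at least 32 counts in each library. Levels are given as CPM, the count relative to the scaled library size, and each table was scaled on its own. A gene was called lower or higher where edgeR's quasi-likelihood test gave an adjusted p below 0.05 and a fold over 1.5. Whole-gene counts of Cdk8 were 71.9 to 80.8 CPM in VillinCreERT2, 78.0 to 83.1 CPM in CDK8iIEC-KO and 65.1 to 67.2 CPM in CDK8iIEC-KO/Cdk19-/- organoids, and its log2 fold change was -0.12 to 0.04 over the days of the time course, 0.14 in Wnt3-CM, 0.01 in D173A and 0.06 in IECs, none of these below 0.05 by adjusted p. Cdk19 was 27.2 to 29.1 CPM in VillinCreERT2 and 27.6 to 27.8 CPM in CDK8iIEC-KO/Cdk19-/- organoids, and with 4-OHT it was higher by 0.35, 0.33 and 0.29 on the log2 scale on days 3, 5 and 7 (adjusted p = 8.01e-05, 0.00026 and 0.00057). These counts include any transcript that lacks the deleted part, so they do not check the genotype. The epithelial markers Vil1, Epcam, Cdh1, Krt8, Krt20 and Cdx2 summed to 5043 to 5824 CPM in VillinCreERT2 organoids and in IECs to 10021 to 10552 CPM in VillinCreERT2 and 8804 to 9667 CPM in CDK8iIEC-KO/Cdk19-/- mice, and none was at 0. Their sum also moved with treatment in places: with EtOH and 4-OHT it was 4890 to 5065 and 6205 to 6559 CPM on day 7, 5400 to 5653 and 6113 to 6733 CPM on day 10, 5632 to 5751 and 5831 to 6236 CPM in D173A, and, in the other direction, 5362 to 5755 and 5010 to 5213 CPM on day 3 and 8878 to 9253 and 7065 to 7685 CPM in Wnt3-CM. In the tissue as in the cultures, fewer cells of a type and less RNA per cell cannot be told apart in such bulk samples.

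Per kilobase of exon, Xbp1 was the most abundant of the factors in VillinCreERT2 organoids, at 85.2 ± 2.6 CPM per kb (SD, n = 3). Creb3l1 followed at 18.0 and Sox9 at 12.1. Atoh1 (9.83 ± 1.1), Foxa3 (9.17 ± 0.54), Spdef (9.05 ± 0.69) and Sox4 (8.72 ± 0.65) did not differ beyond their spread. Creb3l4 (4.94) and Bhlha15 (3.91) came below, and Gfi1 was lowest at 0.971 ± 0.15. In the EtOH cultures of the time course on day 3, the order of the leading pair was reversed, with Creb3l1 at 110.4 ± 5.4 and Xbp1 at 90.3 ± 3.5 CPM per kb. In IECs of VillinCreERT2 mice Xbp1 was again highest (78.3 ± 3.5), Creb3l1 (13.9 ± 0.29) and Atoh1 (13.1 ± 0.45) were next, and Gfi1 was lowest (1.78 ± 0.21).

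The first question was whether the factors respond to loss of either kinase or only to loss of both. In CDK8iIEC-KO/Cdk19-/- organoids 8 of the 10 factors were called lower than in VillinCreERT2 organoids on day 7, against 7.95% of 15125 genes called lower. The median log2 fold change was -0.83 over the 10 factors and -0.0021 over all genes tested. Atoh1 fell from 18.3, 21.1 and 23.1 CPM in the VillinCreERT2 libraries to 11.8, 11.8 and 12.2 CPM, a log2 fold change of -0.80 ± 0.10 (SE, adjusted p = 1.15e-07 by edgeR). The groups did not overlap, and 30.5% of all genes had all libraries lower in this comparison. Gfi1, which sits downstream of Atoh1, read 2.6, 3.13 and 3.55 against 1.81, 2.05 and 2.65 CPM, overlapped, and missed the fold threshold (-0.51 ± 0.22, adjusted p = 0.0473). It was called lower against the mean of both control lines (-0.69) and without VillinCreERT2 replicate 3 (-0.62) or combined-loss replicate 1 (-0.68).

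Among the maturation factors, Spdef went from 19.4, 20.6 and 22.5 to 10.7, 11.8 and 12.1 CPM (-0.85 ± 0.10, adjusted p = 6.84e-08). Foxa3 went from 17.6, 18.6 and 19.8 to 7.2, 8.97 and 9.33 CPM (-1.14 ± 0.12, adjusted p = 4.47e-08). Creb3l1 went from 41.7, 47.5 and 51.7 to 20.9, 22.7 and 22.8 CPM (-1.09 ± 0.09). Counting Atoh1, all libraries of the combined loss lay under all control libraries for 8 of 10 factors, among them Creb3l4, whose 7.9 to 8.54 CPM became 4.46 to 5.31 (-0.72 ± 0.12). The largest change was in Bhlha15, the scaler of secretory capacity, which fell 2.76-fold from 13.0, 13.6 and 14.2 to 4.76, 4.97 and 5.08 CPM (-1.47 ± 0.10, adjusted p = 2.45e-12). Sox4 fell from 38.3, 42.8 and 44.4 to 15.8, 17.3 and 20.4 CPM (-1.23 ± 0.11) and Sox9 from 48.0, 50.2 and 52.4 to 28.8, 29.7 and 32.2 CPM (-0.73 ± 0.08). Xbp1 moved the other way by a small amount, from 268, 277 and 285 to 304, 304 and 318 CPM (0.16 ± 0.05, adjusted p = 0.0142), with all 3 combined-loss libraries above the controls, as for 29.4% of all genes, but far under the fold threshold.

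**Figure D1:**
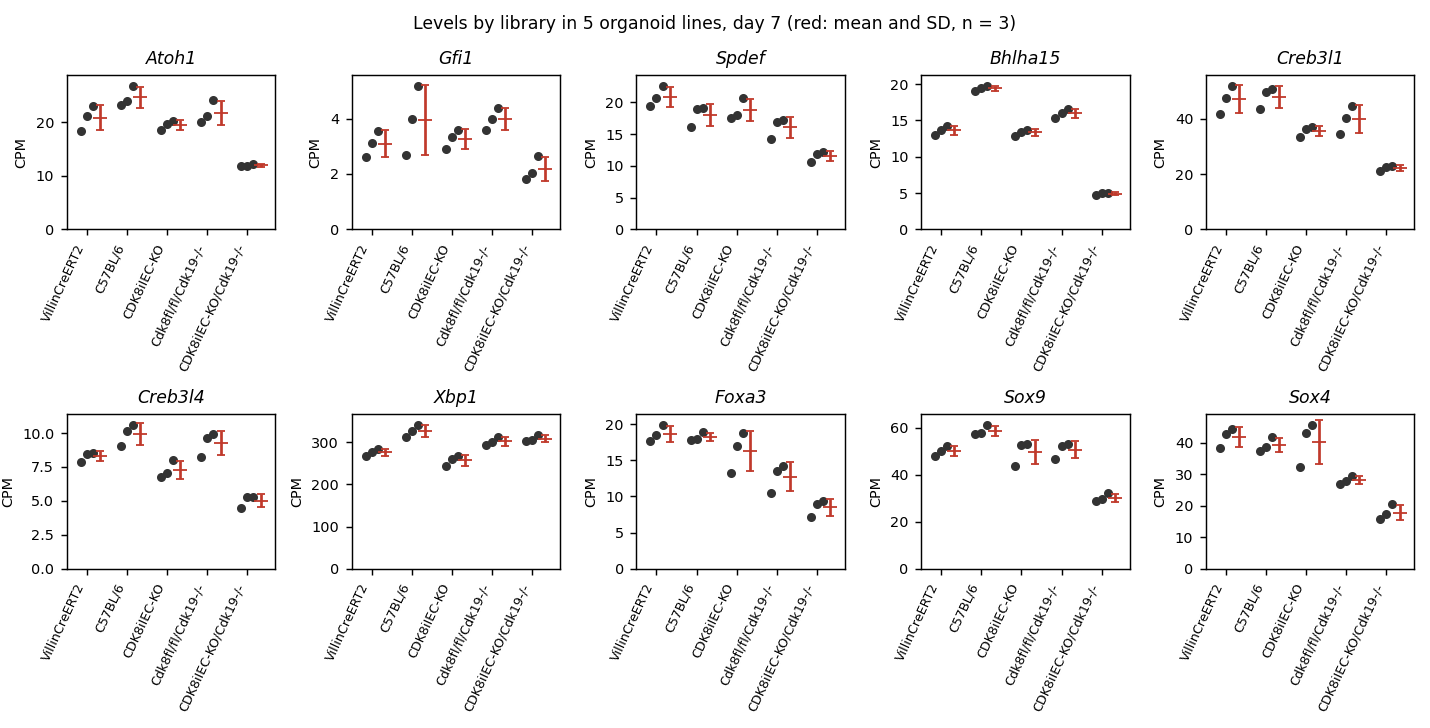
Level of each factor in CPM (y axes from 0) in 5 organoid lines on day 7 after 4-OHT. Black points are libraries and red bars the mean and SD (n = 3). In the CDK8iIEC-KO/Cdk19-/- line every factor but Xbp1 and Gfi1 sits below all VillinCreERT2 libraries, with Bhlha15 at 4.76 to 5.08 CPM.

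After loss of CDK8 alone, 0 of the 10 factors were called by edgeR, by DESeq2 or by limma-voom (background 4.34% called lower), and 1 had an unadjusted p below 0.05. That gene was Creb3l1, at 33.3, 36.2 and 36.9 CPM, below all VillinCreERT2 libraries (-0.40 ± 0.09, adjusted p = 0.000779). With Xbp1, 2 of 10 factors had all libraries below the controls, against 20.3% of all genes. By adjusted p alone 1 of 10 factors was below 0.05, against 30.3% of all genes. The 95% interval for Atoh1 ran from -0.28 to 0.08 and that for Bhlha15 from -0.20 to 0.13 on the log2 scale. The log2 fold changes of the others, with SE, were Gfi1 (0.08 ± 0.19), Spdef (-0.15 ± 0.09), Creb3l4 (-0.19 ± 0.11), Xbp1 (-0.11 ± 0.05), Foxa3 (-0.20 ± 0.11), Sox9 (-0.01 ± 0.07) and Sox4 (-0.05 ± 0.10).

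Loss of CDK19 alone, compared with C57BL/6 organoids, also left 0 of 10 factors called by the 3 tools (background 2.39% called lower), but 6 had an unadjusted p below 0.05. By adjusted p alone, 5 of 10 were below 0.05, all with lower levels, against 15.5% of all genes. Foxa3 was 17.8, 17.9 and 18.9 CPM in C57BL/6 and 10.5, 13.6 and 14.2 CPM in Cdk8fl/fl/Cdk19-/- organoids (-0.52 ± 0.12, adjusted p = 0.00412), and was called lower without Cdk8fl/fl/Cdk19-/- replicate 1 (-0.59). Sox4 was 37.3, 38.7 and 41.7 against 26.9, 27.8 and 29.5 CPM (-0.48 ± 0.11, adjusted p = 0.00311). These libraries did not overlap for either gene, and with Bhlha15 and Sox9 this held for 4 of 10 factors, against 15.7% of all genes. Bhlha15 (-0.28), Creb3l1 (-0.27) and Sox9 (-0.21) differed by less. Not below 0.05 by adjusted p were Atoh1 (-0.18 ± 0.09), Gfi1 (0.0074 ± 0.19), Spdef (-0.17 ± 0.10), Creb3l4 (-0.10 ± 0.11) and Xbp1 (-0.11 ± 0.05).

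The control lines themselves differed. Between C57BL/6 and VillinCreERT2 organoids 10.9% of genes were called lower and 15.5% higher, but 0 of the 10 factors were called by any of the 3 tools, while 6 had an unadjusted p below 0.05. By adjusted p alone 5 of 10 were below 0.05, against 61.3% of all genes. The largest difference was in Bhlha15, at 19.0, 19.5 and 19.7 CPM in C57BL/6 (0.51 ± 0.08, adjusted p = 4.73e-06), which passed the fold threshold with upper quartile scaling (0.59). The other differences were Atoh1 (0.24 ± 0.09), Gfi1 (0.35 ± 0.20), Spdef (-0.21 ± 0.09), Creb3l1 (0.03 ± 0.09), Creb3l4 (0.26 ± 0.11), Xbp1 (0.24 ± 0.05), Foxa3 (-0.04 ± 0.11), Sox9 (0.23 ± 0.07) and Sox4 (-0.09 ± 0.10).

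Whether combined loss exceeded the sum of the separate losses was tested directly. The response to combined loss was lower than the sum by -1.15 ± 0.13 for Bhlha15 (adjusted p = 6.6e-08) and by -0.69 ± 0.15 for Sox4 (adjusted p = 0.00105), the 2 of 10 factors called lower in this contrast, against 8.34% of genes. Atoh1 (-0.52 ± 0.13), Spdef (-0.53 ± 0.14) and Sox9 (-0.51 ± 0.10) had adjusted p-values of 0.00238, 0.00332 and 0.000318 but missed the fold threshold, and by adjusted p alone 8 of 10 factors were below 0.05, against 43.1% of all genes. The remaining differences were Gfi1 (-0.60 ± 0.29), Creb3l1 (-0.41 ± 0.13), Creb3l4 (-0.43 ± 0.17) and Foxa3 (-0.43 ± 0.17). Gfi1 passed without C57BL/6 replicate 2 (-0.84), Spdef without Cdk8fl/fl/Cdk19-/- replicate 1 (-0.60) and Sox9 without CDK8iIEC-KO replicate 3 (-0.60). Xbp1 was higher than the sum by 0.38 ± 0.07 (adjusted p = 0.000218), also under the threshold. The VillinCreERT2 level cancels out of this contrast, which leaves C57BL/6 as its only control line. Differences between the lines that remain enter it.

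The time course addressed the order in which the factors were lost. On day 3 only Bhlha15 was called lower, 1 of 10 factors against 5.95% of 15447 genes. It read 35.4, 36.2 and 36.4 CPM with EtOH and 17.3, 18.8 and 19.8 CPM with 4-OHT (-0.95 ± 0.09, adjusted p = 9.02e-10). On the same day Atoh1 was 32.4, 32.7 and 32.9 CPM with EtOH and 33.6, 34.8 and 36.9 CPM with 4-OHT (0.10 ± 0.07, adjusted p = 0.286). The 3 treated libraries of Atoh1 thus lay above the controls when Bhlha15 had already decreased by 48.2%. Bhlha15 is known as a gene that acts downstream in secretory cells, and here it was the first of the 10 to pass the threshold.

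By adjusted p alone, 7 of 10 factors were below 0.05 on day 3, against 34.4% of all genes, and they went in both directions. Lower levels were seen in 5 of them. Beside Bhlha15 these were Creb3l4 (13.3 to 15.6 with EtOH against 10.2 to 11.1 CPM with 4-OHT, -0.46 ± 0.13), Xbp1 (281 to 303 against 224 to 227 CPM, -0.38 ± 0.06, adjusted p = 5.38e-06), Spdef (-0.31 ± 0.09) and Creb3l1 (-0.22 ± 0.07). The remaining pair had higher levels. Sox9 was 150.1, 154 and 158 CPM with EtOH and 205, 214 and 215 CPM with 4-OHT (0.46 ± 0.09, adjusted p = 0.000103). Sox4 was 81.2, 89.2 and 90.5 against 95.4, 96.5 and 104 CPM (0.18 ± 0.06, adjusted p = 0.026), and Foxa3 read 34.2, 36.8 and 40.3 against 40.6, 44.9 and 45.5 CPM (0.24 ± 0.11, adjusted p = 0.11). With Atoh1, every treated library was above every control for 4 of 10 factors, against 23.8% of all genes. Gfi1 was at -0.15 ± 0.17. Enterocyte markers were lower on that day as well: 7 of 9 were called lower, and their summed level was 5506 to 5977 CPM with EtOH and 2128 to 2501 CPM with 4-OHT. Their part in the day 3 values was not tested.

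On day 5, 4 of 10 factors were called lower (background 4.62%). Atoh1 had dropped to 19.1, 20.1 and 20.5 CPM with 4-OHT while the EtOH libraries read 32.1, 34.9 and 35.4 CPM (-0.78 ± 0.07, adjusted p = 3.97e-09). Creb3l1 read 258, 275 and 286 against 159.9, 161 and 173.5 CPM (-0.73 ± 0.08) and Bhlha15 29.5, 31.8 and 32.3 against 12.8, 13.4 and 13.6 CPM (-1.24 ± 0.09). Foxa3 passed narrowly, at 32.8, 33.9 and 37.2 against 19.5, 24.1 and 25.0 CPM (-0.60 ± 0.12, a 1.51-fold decrease). It fell short of the fold with upper quartile scaling (-0.57), under a stricter minimum of 10 counts per library (-0.58), without EtOH replicate 3 (-0.56) and without 4-OHT replicate 1 (-0.51). Sox9 missed by as little (-0.58 ± 0.09) and passed with DESeq2 (-0.59), without the filter (-0.59) and without EtOH replicate 2 or 3 or 4-OHT replicate 2 or 3 (-0.61 to -0.62). Gfi1 (-0.57 ± 0.18) passed without EtOH replicate 1 (-0.71) or 4-OHT replicate 2 (-0.77). Spdef (-0.40 ± 0.09), Creb3l4 (-0.37 ± 0.14) and Sox4 (-0.42 ± 0.06) had adjusted p-values of 0.000707, 0.0321 and 1.07e-05 and missed the fold. All libraries lay under the controls for 8 of 10 factors (background 23.0%). Xbp1 was 286 to 304 CPM with EtOH and 289 to 305 CPM with 4-OHT, with an interval from -0.12 to 0.12.

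On day 7, 7 of 10 factors were called lower (background 9.25%), the additional ones being Gfi1, Sox9 and Sox4. Gfi1 read 5.28, 5.5 and 5.69 against 2.48, 3.6 and 3.76 CPM (-0.74 ± 0.18, adjusted p = 0.00102), the first day on which its groups did not overlap, and it fell just under the fold without 4-OHT replicate 1 (-0.58). Sox9 read 138, 141 and 163 against 70.4, 75.7 and 87.2 CPM (-0.92 ± 0.09) and Sox4 79.0, 81.8 and 87.9 against 51.6, 51.6 and 57.8 CPM (-0.63 ± 0.06). Bhlha15 was down 3.34-fold, to 7.98, 8.96 and 10.2 CPM. Creb3l1 (-0.62 ± 0.07) lost its call without EtOH replicate 1 (-0.54) or 4-OHT replicate 1 (-0.58), and Creb3l4 (-0.55 ± 0.14) gained one without EtOH replicate 2 (-0.65) or 4-OHT replicate 1 (-0.59). Xbp1 was 278, 278 and 288 with EtOH and 304, 327 and 343 CPM with 4-OHT (0.21 ± 0.06, adjusted p = 0.0036), higher in all 3 treated libraries, as were 25.2% of all genes, but not called. Atoh1 (-0.92 ± 0.08) and Foxa3 (-0.81 ± 0.12) were called again, and Spdef (-0.49 ± 0.09) missed the fold. All libraries lay under the controls for 9 of 10 factors, against 24.4% of all genes.

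On day 10, 9 of 10 factors were called lower (background 6.92%), by edgeR, DESeq2 and limma-voom alike, and in none of these 9 did the groups overlap, against 25.3% of all genes with all libraries lower. Bhlha15 was down 4.23-fold, from 23.6, 25.5 and 26.4 to 5.17, 6.29 and 6.38 CPM (-2.08 ± 0.10). Atoh1 was down 2.23-fold, from 18.1, 19.2 and 19.2 to 8.15, 8.53 and 8.65 CPM (-1.16 ± 0.08), and Creb3l1 2.04-fold, from 116, 124 and 125 to 58.2, 59.4 and 61.4 CPM (-1.03 ± 0.08). Spdef joined on this day, at 25.9, 26.6 and 29.4 against 13.6, 15.6 and 16.4 CPM (-0.84 ± 0.09), as did Creb3l4, at 9.59, 11.97 and 12.4 against 5.7, 6.54 and 7.58 CPM (-0.77 ± 0.14). Gfi1 (-0.89 ± 0.18), Sox9 (-0.86 ± 0.09), Foxa3 (-0.84 ± 0.13) and Sox4 (-0.74 ± 0.06) were called again. Xbp1, 308, 345 and 345 with EtOH and 347, 352 and 366 CPM with 4-OHT, had an interval from -0.02 to 0.21.

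**Figure D2:**
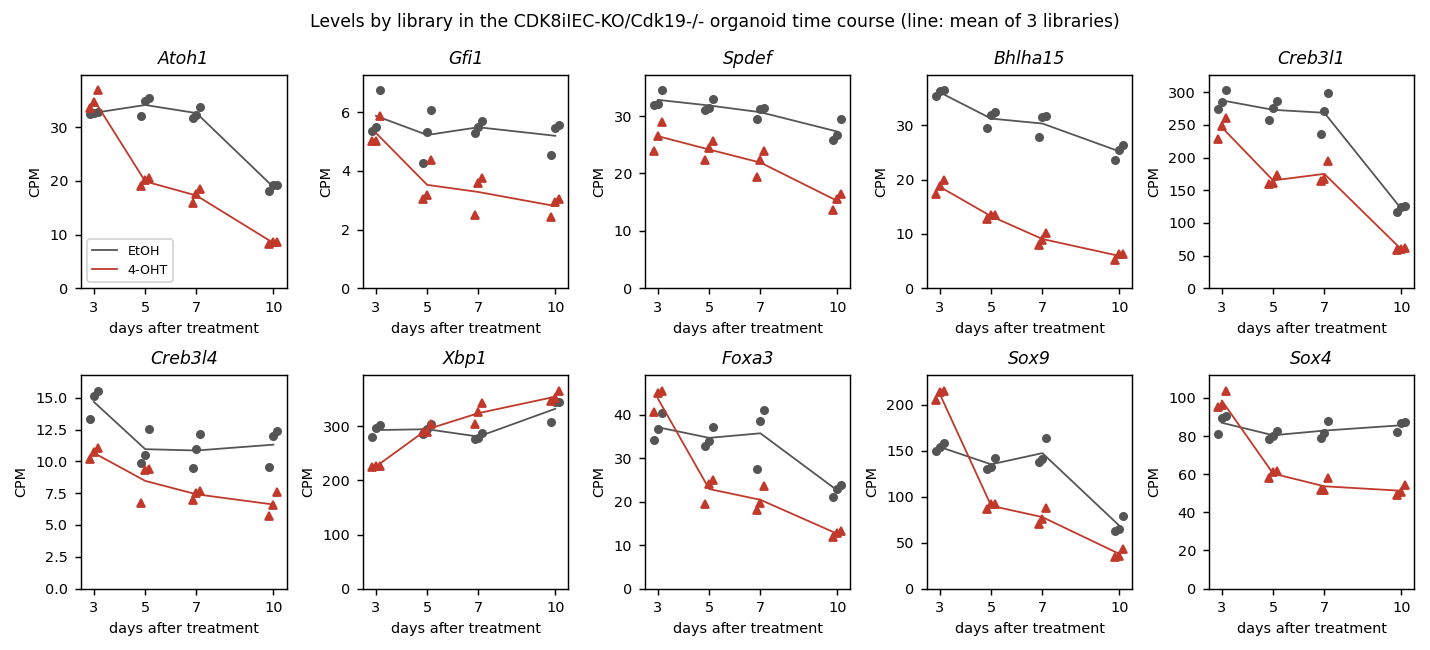
Level in CPM (y axes from 0) by day for each factor in the CDK8iIEC-KO/Cdk19-/- organoid time course. Grey circles are EtOH libraries, red triangles 4-OHT libraries, and lines join the means of 3 libraries. Bhlha15 is already separated on day 3 (17.3 to 19.8 against 35.4 to 36.4 CPM), whereas Sox9 is higher with 4-OHT on that day and lower from day 5.

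By the first day called lower, the order was Bhlha15 on day 3, then Atoh1, Creb3l1 and Foxa3 on day 5, then Gfi1, Sox9 and Sox4 on day 7, then Spdef and Creb3l4 on day 10, with Xbp1 on none. Under the alternative filters, scalings, tools and the fits with a replicate term or only the groups compared, the first day moved only for Foxa3 (to day 7) and Sox9 (to day 5). This order depends on the fold threshold. As a share of its own day 10 change, Creb3l4 had reached 59.6% on day 3, Bhlha15 45.7%, Spdef 36.7%, Creb3l1 21.8% and Gfi1 17.0%, whereas Atoh1 (-8.88%), Sox4 (-24.5%), Foxa3 (-28.0%) and Sox9 (-53.2%) stood on the other side of 0. By that measure Creb3l4 and Spdef, called last, were among the earliest. These shares carry no error, however, and Creb3l4 stood at 48.3% on day 5, so their order was not resolved. By size on day 10, Bhlha15 stood below the next factor, Atoh1, by 0.92 on the log2 scale, 6.99 times their joint SE. The 8 factors from Atoh1 (-1.16) to Sox4 (-0.74) had gaps to their next neighbour of at most 1.13 joint SE, and Sox4 stood below Xbp1 by 9.65 joint SE. Neighbours in that order were thus not resolved, whereas the 95% intervals of Atoh1 (-1.33 to -0.99) and Sox4 (-0.87 to -0.61), at its ends, did not meet.

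**Figure D3:**
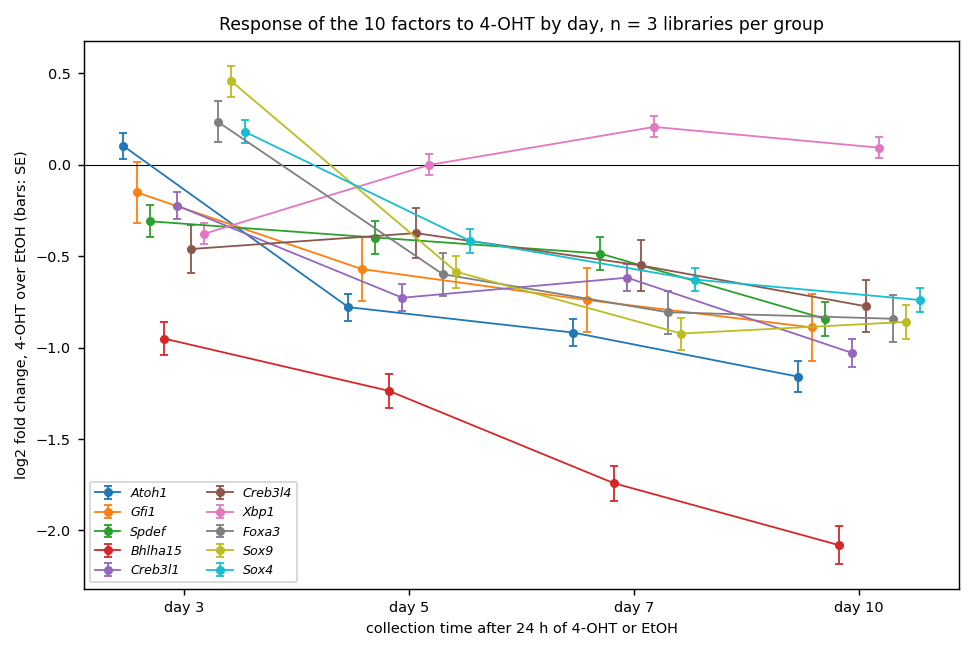
Log2 fold change of 4-OHT over EtOH (y axis) on days 3, 5, 7 and 10 (x axis) for the 10 factors, with SE bars and n = 3 libraries per group. Bhlha15 runs from -0.95 to -2.08, Sox9 starts at 0.46 and reaches -0.92 on day 7, and Xbp1 stays between -0.38 and 0.21.

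The change of the response between days was tested as well. From day 3 to day 5 it became lower for 4 of 10 factors, against 9.01% of genes: Sox9 by -1.04 ± 0.12 (adjusted p = 1.85e-07), Atoh1 by -0.88 ± 0.10 (adjusted p = 1.45e-07), Foxa3 by -0.83 ± 0.16 and Sox4 by -0.60 ± 0.09. The rest changed by less than the fold: Gfi1 (-0.42 ± 0.24), Spdef (-0.09 ± 0.12), Bhlha15 (-0.29 ± 0.13), Creb3l1 (-0.50 ± 0.11) and Creb3l4 (0.09 ± 0.19). The Sox4 call was lost without EtOH day 3 replicate 2 or 4-OHT day 3 replicate 3 (-0.57 and -0.58). Xbp1 changed by 0.38 ± 0.08 in the other direction (adjusted p = 0.000524). From day 5 to day 7 and from day 7 to day 10, 0 of 10 factors were called by any of the 3 tools (backgrounds 5.01% and 3.42%), with 4 at an unadjusted p below 0.05 in each. By adjusted p alone it was 1 of 10 in each step, against 18.9% and 16.8% of all genes. The largest of these steps was Bhlha15 from day 5 to 7 (-0.50 ± 0.13, adjusted p = 0.00794), which passed the fold without 4-OHT day 7 replicate 3 (-0.60). The other changes from day 5 to 7 were Atoh1 (-0.14 ± 0.11), Gfi1 (-0.17 ± 0.25), Spdef (-0.09 ± 0.13), Creb3l1 (0.11 ± 0.11), Creb3l4 (-0.18 ± 0.20), Xbp1 (0.21 ± 0.08), Foxa3 (-0.21 ± 0.17), Sox9 (-0.34 ± 0.12) and Sox4 (-0.21 ± 0.09). From day 7 to 10 they were Atoh1 (-0.24 ± 0.11), Gfi1 (-0.15 ± 0.25), Spdef (-0.36 ± 0.13), Bhlha15 (-0.34 ± 0.14), Creb3l1 (-0.41 ± 0.11), Creb3l4 (-0.22 ± 0.20), Xbp1 (-0.11 ± 0.08), Foxa3 (-0.04 ± 0.17), Sox9 (0.06 ± 0.13) and Sox4 (-0.11 ± 0.09). From day 3 to day 10 the response became lower for 7 of 10 factors (background 12.4%), most in Sox9 (-1.32 ± 0.13), Atoh1 (-1.26 ± 0.11), Bhlha15 (-1.13 ± 0.13) and Foxa3 (-1.08 ± 0.17), while Creb3l4 changed by -0.31 ± 0.19 (adjusted p = 0.193). Spdef (-0.53 ± 0.13) passed without 4-OHT day 3 replicate 2 (-0.60) or 4-OHT day 10 replicate 3 (-0.59). The Gfi1 change (-0.74 ± 0.25) was lost without 4-OHT day 10 replicate 2 (adjusted p = 0.0502). Creb3l1 (-0.80 ± 0.11) and Sox4 (-0.92 ± 0.09) were called lower too, and Xbp1 changed by 0.47 ± 0.08.

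The EtOH cultures also moved between days. From day 3 to day 10 of EtOH, 4 of 10 factors were called lower, but so were 22.4% of all genes. Creb3l1 went from 275, 285 and 303 to 116, 124 and 125 CPM (-1.24 ± 0.08), Sox9 from 150.1, 154 and 158 to 62.1, 64.3 and 79.1 CPM (-1.17 ± 0.09), and Atoh1 (-0.79 ± 0.07) and Foxa3 (-0.72 ± 0.12) were lower as well. Sox4 was not (-0.02 ± 0.06, interval -0.15 to 0.11), and the remaining differences, not called, were Gfi1 (-0.18 ± 0.17), Spdef (-0.27 ± 0.09), Bhlha15 (-0.52 ± 0.09), Creb3l4 (-0.38 ± 0.13) and Xbp1 (0.18 ± 0.06). Bhlha15 passed the fold there with upper quartile scaling and under the stricter count minimum (-0.60 in both). The lowest Atoh1 levels with 4-OHT on day 10 therefore sit on a control level that was itself lower than on day 3, and the fold changes are against the EtOH libraries of the same day. Day of culture and any separate preparation of the days cannot be told apart.

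Wnt3-CM was used to ask whether supplied Wnt3, a Paneth cell ligand, changes the response. After 10 days in it, 7 of 10 factors were called lower (background 7.42% of 13745 genes). Atoh1 read 18.3, 19.2 and 19.2 CPM with EtOH and 9.69, 10.7 and 11.7 CPM with 4-OHT (-0.82 ± 0.10, adjusted p = 1.01e-06). Spdef read 28.6, 33.8 and 36.1 against 17.2, 17.5 and 18.7 CPM (-0.88 ± 0.09), Sox9 57.4, 59.0 and 61.4 against 30.2, 31.7 and 33.4 CPM (-0.90 ± 0.07), and Creb3l1 76.1, 82.7 and 90.1 against 39.4, 48.8 and 52.4 CPM (-0.82 ± 0.09). Foxa3 (-0.77 ± 0.10) and Sox4 (-0.74 ± 0.08) were also lower. Bhlha15, at 10.0, 10.5 and 11.6 against 4.06, 4.47 and 5.35 CPM, had the largest change again (-1.21 ± 0.14). Gfi1 (-0.52 ± 0.17, adjusted p = 0.016) and Creb3l4 (-0.45 ± 0.17, adjusted p = 0.031) missed the fold. Gfi1 passed it without EtOH column 3 (-0.59) or 4-OHT column 3 (-0.62), and Creb3l4 without EtOH column 1 (-0.62) or 4-OHT column 3 (-0.60). Xbp1 had an interval from -0.09 to 0.18. All libraries lay under the controls for 8 of 10 factors, all but Creb3l4 and Xbp1, against 28.1% of all genes. Of 9 enterocyte markers 5 were called higher (background 9.45%) and 1 lower here, while their sums of 7031 to 8492 CPM with EtOH and 7308 to 8058 CPM with 4-OHT overlapped. Their part in the values in Wnt3-CM was not tested.

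Set against the day 10 cultures in plain medium, in a joint fit of 12 libraries, the Wnt3-CM response was weaker for 1 of 10 factors, Bhlha15 (higher by 0.87 ± 0.17, adjusted p = 0.000597), against 7.11% of genes called higher in that contrast. The EtOH libraries of Bhlha15 in Wnt3-CM, at 10.0 to 11.6 CPM, lay below those in plain medium, at 23.6 to 26.4 CPM, whereas the treated libraries read 4.06 to 5.35 and 5.17 to 6.38 CPM, each table on its own scale. For Atoh1 the difference was 0.34 ± 0.13 (adjusted p = 0.0581, interval 0.07 to 0.62). Gfi1 differed by 0.37 ± 0.23 (interval -0.11 to 0.84), Creb3l4 by 0.32 ± 0.23 (interval -0.17 to 0.81) and Creb3l1 by 0.20 ± 0.12 (interval -0.05 to 0.45), none of them below 0.05 by adjusted p. The others were nearer to 0, at Spdef (-0.04 ± 0.13), Xbp1 (-0.05 ± 0.09), Foxa3 (0.07 ± 0.13), Sox9 (-0.04 ± 0.13) and Sox4 (0.0024 ± 0.11). Medium and any separate preparation of these cultures cannot be told apart.

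The D173A organoids asked whether a kinase-dead CDK19 stands in for CDK8. After 4-OHT, 6 of 10 factors were called lower (background 6.25% of 15457 genes). Bhlha15 fell 4.42-fold, from 21.7, 24.0 and 26.3 to 4.81, 5.35 and 6.13 CPM (-2.14 ± 0.12, adjusted p = 1.49e-06). Creb3l1 fell from 73.6, 76.2 and 79.1 to 34.7, 37.8 and 38.7 CPM (-1.04 ± 0.07), Creb3l4 from 8.81, 10.1 and 10.7 to 4.98, 5.03 and 5.77 CPM (-0.91 ± 0.13), Sox9 from 60.02, 60.1 and 65.6 to 29.6, 34.9 and 37.9 CPM (-0.86 ± 0.09), Foxa3 from 16.0, 17.3 and 19.6 to 9.56, 10.4 and 10.6 CPM (-0.79 ± 0.11) and Spdef from 27.6, 30.6 and 33.8 to 17.7, 19.1 and 20.9 CPM (-0.67 ± 0.10). All libraries lay under the controls for 8 of 10 factors, these 6 with Sox4 and Gfi1, against 21.6% of all genes. Gfi1 (-0.24 ± 0.15, adjusted p = 0.257) and Xbp1 (0.02 ± 0.06) were not called. Sox4 was 36.9, 44.6 and 48.8 against 27.5, 28.4 and 32.5 CPM (-0.56 ± 0.11, adjusted p = 0.004) and passed the fold with upper quartile scaling (-0.61) and without EtOH column 2 (-0.68) or 4-OHT column 1 (-0.63). Enterocyte markers moved with the treatment as well: 5 of 9 were called higher (background 6.05%), with a median of 0.89, and their sum went from 14972 to 16801 CPM with EtOH to 20119 to 22353 CPM with 4-OHT. Their part in the values of the factors was not tested.

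Atoh1 differed here. It read 22.4, 24.0 and 24.2 CPM with EtOH and 17.2, 20.0 and 23.6 CPM with 4-OHT, the groups overlapped, and the log2 fold change was -0.22 ± 0.11 (adjusted p = 0.188, interval -0.47 to 0.03). Against the day 7 response of the Cdk19-/- time course line, in a joint fit of 12 libraries, the response of Atoh1 was higher by 0.70 ± 0.15 (adjusted p = 0.00384), the 1 of 10 factors called higher, against 4.90% of genes. The call rested on 1 library: without 4-OHT column 1 the difference was 0.57, just under the fold (adjusted p = 0.00707). Over the 12 fits that each left out a library it was 0.57 to 0.81. Gfi1 had a difference of 0.50 ± 0.24 (adjusted p = 0.158, interval -0.01 to 1.00), and Creb3l1 one of -0.43 ± 0.12 (adjusted p = 0.0224), that is, further down in the D173A line. The other differences were Spdef (-0.19 ± 0.14), Bhlha15 (-0.40 ± 0.17), Creb3l4 (-0.36 ± 0.19), Xbp1 (-0.19 ± 0.09), Foxa3 (0.01 ± 0.20), Sox9 (0.06 ± 0.14) and Sox4 (0.07 ± 0.14). The 2 lines, their animals and their tables differ along with the Cdk19 allele, and these cannot be told apart.

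In IECs taken from mice, 3 of 10 factors were called lower, against 0.856% of 15182 genes. Bhlha15 fell from 7.99, 10.8 and 11.3 CPM in VillinCreERT2 to 3.76, 4.32 and 5.04 CPM in CDK8iIEC-KO/Cdk19-/- mice (-1.19 ± 0.20, adjusted p = 0.044), Creb3l4 from 8.26, 10.0 and 10.3 to 4.01, 4.94 and 5.21 CPM (-1.01 ± 0.17, adjusted p = 0.0453) and Foxa3 from 12.8, 13.1 and 13.2 to 6.43, 6.95 and 8.49 CPM (-0.84 ± 0.14, adjusted p = 0.0453). Counting the factors whose combined-loss libraries all lay under the controls gives 8 of 10, against 14.6% of all genes. The other 5 of these were Atoh1, Spdef, Creb3l1, Sox9 and Sox4. Atoh1 was 26.6, 28.1 and 28.4 against 15.4, 18.9 and 19.3 CPM (-0.63 ± 0.12, adjusted p = 0.0546). Sox9 was 27.6, 38.4 and 39.3 against 10.5, 11.2 and 19.8 CPM (-1.34 ± 0.28, adjusted p = 0.078) and Sox4 11.3, 13.0 and 18.2 against 6.73, 8.44 and 10.6 CPM (-0.72 ± 0.24, adjusted p = 0.171). Spdef (-0.51 ± 0.18) and Creb3l1 (-0.33 ± 0.14) had adjusted p-values of 0.19 and 0.251.

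The IEC calls sat close to the threshold. The number of factors called lower was 6 without the filter on low counts, 5 with DESeq2 and under the stricter count minimum, 3 with limma-voom and 1 with upper quartile scaling. It was 0 without VillinCreERT2 replicate 1 or 3 or combined-loss replicate 1 or 3, and 5 without VillinCreERT2 replicate 2 or combined-loss replicate 2. Leaving out 1 library at a time gave -1.32 to -1.09 for Bhlha15, -1.09 to -0.91 for Creb3l4, -0.96 to -0.76 for Foxa3 and -0.69 to -0.54 for Atoh1. For the others the fold changes ranged from -1.70 to -1.19 for Sox9, -0.91 to -0.50 for Sox4, -0.73 to -0.41 for Spdef, -0.42 to -0.20 for Creb3l1, 0.30 to 0.68 for Gfi1 and 0.07 to 0.14 for Xbp1.

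Plasma and lymphoid markers were higher in the combined-loss IECs. The summed level of 12 such genes was 149.6 to 637 CPM in VillinCreERT2 and 1358 to 2004 CPM in CDK8iIEC-KO/Cdk19-/- libraries, all 11 tested had positive fold changes (median 1.66) and 0 were called. Igkc was 10.1, 12.1 and 117 CPM in controls and 299, 357 and 527 CPM in combined loss, and the mesenchymal markers summed to 12.8 to 881 and 453 to 963 CPM. Xbp1 and Bhlha15 are also used by plasma cells and Gfi1 by lymphoid cells. Gfi1 and Xbp1 were the only factors with a positive fold change in IECs. Gfi1 was at 5.19, 5.38 and 6.41 against 5.16, 8.85 and 9.32 CPM (0.46 ± 0.25, adjusted p = 0.351), and Xbp1 was 247, 249 and 267 against 255, 278 and 281 CPM (0.09 ± 0.09). The part of these other cells in the IEC values was not tested. In the organoids most of these lymphoid genes were at or near 0.

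**Figure D4:**
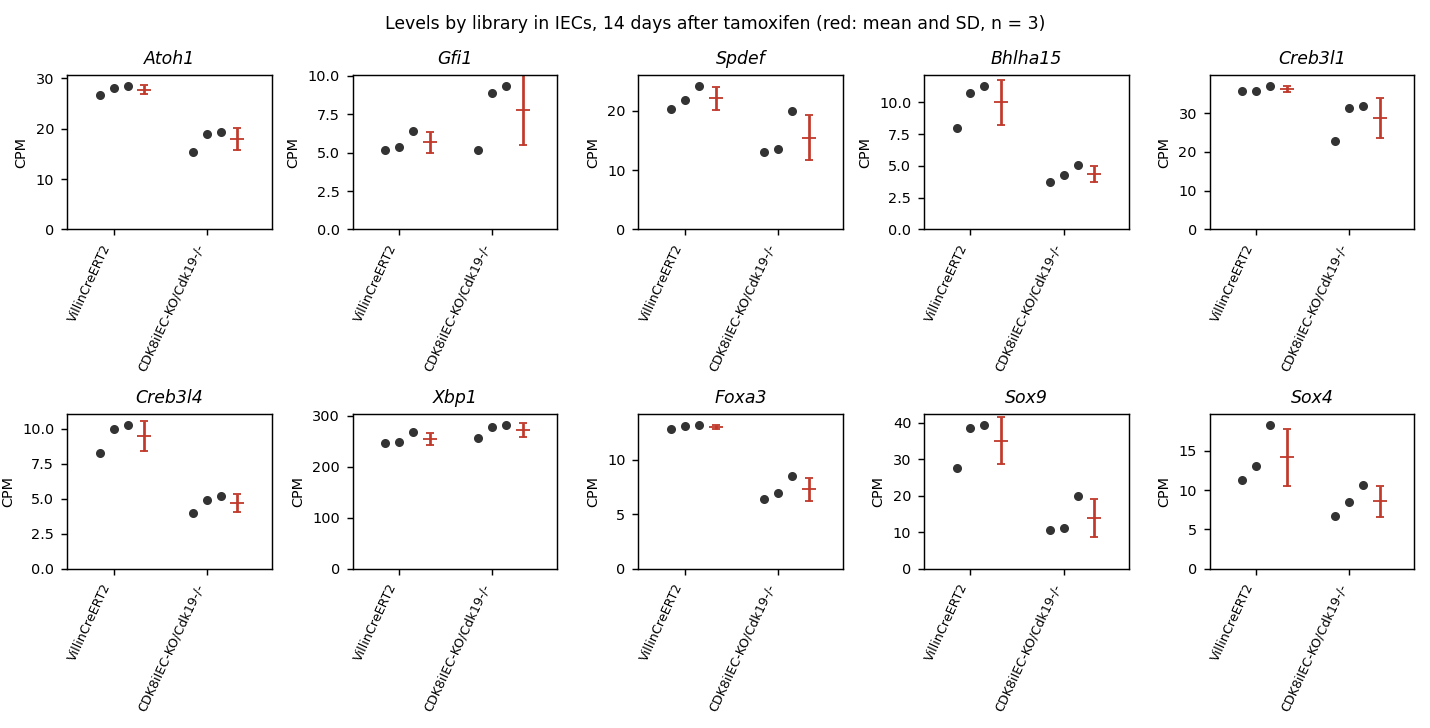
Level of each factor in CPM (y axes from 0) in IECs of VillinCreERT2 and CDK8iIEC-KO/Cdk19-/- mice, 14 days after tamoxifen. Black points are libraries and red bars the mean and SD (n = 3). Bhlha15, Creb3l4 and Foxa3 are called lower, and Gfi1 alone reaches well above its controls (5.16 to 9.32 against 5.19 to 6.41 CPM).

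The 5-line experiment and the IECs set organoids or mice lacking both kinases against intact ones, while the time course, Wnt3-CM and D173A set CDK8 deletion against controls that already lacked intact Cdk19, with a kinase-dead allele kept in D173A. Across these 7 settings from day 5 on, Bhlha15 and Foxa3 were called lower in 7, Creb3l1 in 6, Atoh1 and Sox9 in 5, Spdef, Creb3l4 and Sox4 in 4, Gfi1 in 2 and Xbp1 in 0. The log2 fold changes of Bhlha15 ran from -2.14 to -1.19 and those of Foxa3 from -1.14 to -0.60. Spdef, Creb3l1, Sox9 and Sox4 were below 0 in all 7 settings with no overlap between libraries, where 14.6% to 30.5% of all genes had all libraries lower in a setting. Atoh1 was below 0 in 7 and free of overlap in 6, the exception being D173A. Xbp1 ranged from -0.00048 to 0.21. By the names of their columns the Wnt3-CM cultures came from the organoid line of the time course, so 4 of the 7 settings share a line, and the counts describe agreement without a test.

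**Figure D5:**
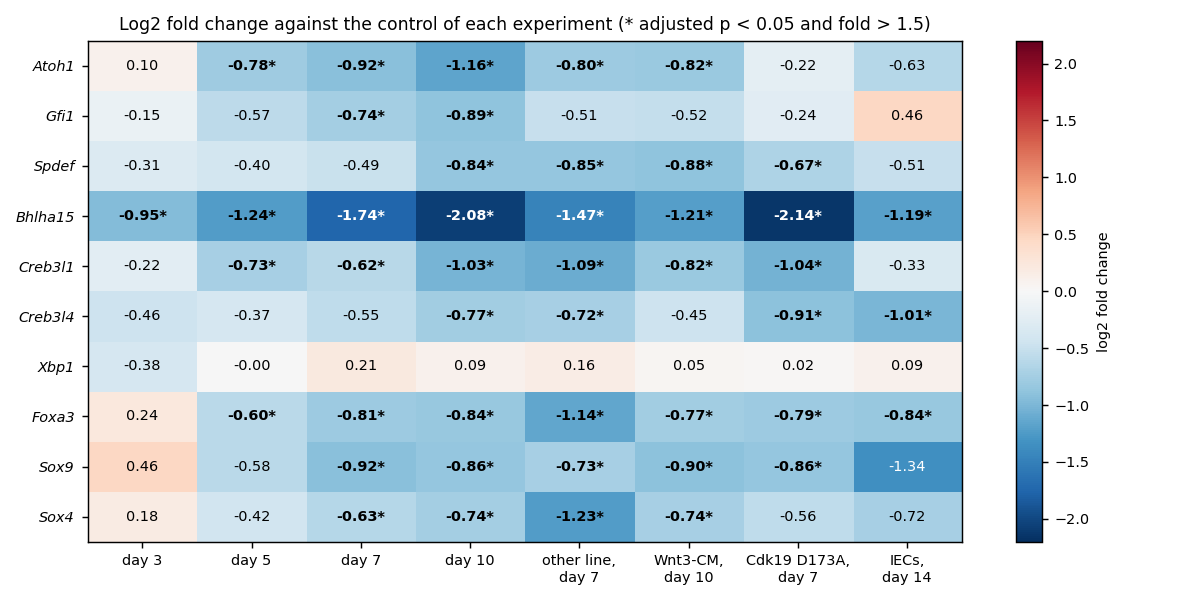
Log2 fold change of each factor (rows) in 8 comparisons (columns), blue for lower and red for higher. The time course days, Wnt3-CM and D173A columns compare CDK8 deletion with controls without intact Cdk19, and the other line and IECs columns compare loss of both kinases with intact ones. Asterisks mark an adjusted p below 0.05 with a fold over 1.5. The Bhlha15 row is marked in all 8 columns (-0.95 to -2.14) and the Xbp1 row in none.

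Genes around the factors were counted from lists, each count to be read against the share of all genes called lower, 5.95%, 4.62%, 9.25% and 6.92% on days 3, 5, 7 and 10, 7.95% in the 5-line experiment, 7.42% in Wnt3-CM, 6.25% in D173A and 0.856% in IECs. Of 25 upstream and partner regulators, 23 were tested in the time course, and 1, 6, 7 and 9 were called lower on days 3, 5, 7 and 10. The day 10 calls were led by the Notch target Hes5 (-1.77), the stem cell factor Ascl2 (-1.4) and the Notch ligand Dll4 (-1.32). On day 3, 4 of the 23 were called higher, against 6.42% of all genes, among them Ascl2 (0.98) and the forkhead factor Foxa1 (0.94), and Dll1, a Notch ligand of early secretory cells, was called lower (-0.63). Their median was -0.0041 on day 3 and -0.46 on day 10, with 0.02 over all genes tested on day 10. In the 5-line experiment 8 of 23 were called lower, in Wnt3-CM 7 of 22, in D173A 6 of 24 and in IECs 1 of 24.

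Of 12 Paneth products, 0 were called lower and 4 higher on day 3, and 9, 10 and 9 were called lower on days 5, 7 and 10, the antimicrobial phospholipase Pla2g2a by -3.42 on day 10. In the 5-line experiment 9 were called lower, in Wnt3-CM 10, in D173A 9 with 1 higher (6.05% of all genes were called higher there), and in IECs 4. In C57BL/6, 6 were called higher and 1 lower than in VillinCreERT2 (15.5% and 10.9% of all genes). The 12 summed to 2912 to 3036 CPM in VillinCreERT2, 5100 to 6312 CPM in C57BL/6 and 946 to 984 CPM in the combined loss. Against the day 7 time course, the D173A response was higher for 2 and lower for 3 (4.90% and 6.25% of all genes). The largest of these was Lyz1, higher by 2.51 ± 0.14 (adjusted p = 1.07e-08 by edgeR). Of 14 goblet products 5, 6, 5 and 5 were called lower on days 3, 5, 7 and 10, Ccl6 being the furthest down on day 10 (-3.17). In the 5-line experiment 8 goblet products were called lower than in VillinCreERT2, but so were 5 after loss of CDK8 alone (background 4.34%) and 6, with 1 higher, in C57BL/6 (10.9% of all genes lower, 15.5% higher). Their sum was 4003 to 4252 CPM in VillinCreERT2, above the 2823 to 3260 CPM of the CDK8iIEC-KO, Cdk8fl/fl/Cdk19-/- and C57BL/6 lines and the 2347 to 2589 CPM of the combined loss. In Wnt3-CM 9 were called lower, and in D173A 4 were called lower and 2 higher. In IECs 6 goblet products were called lower, with Fcgbp at -1.65, Spink4 at -1.24 and Guca2a at -1.18.

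Of 8 tuft markers 5 were tested in the time course, and 2, 3, 5 and 5 were called lower on days 3, 5, 7 and 10. With EtOH the 8 summed to 25.0 to 28.1 CPM on day 3 and 5.04 to 6.57 CPM on day 10. In EtOH alone 5 of 5 were called lower between these days, against 22.4% of all genes. All 7 tested in the 5-line experiment, in Wnt3-CM and in D173A were called lower, and in IECs 2 of 7. Of 12 enteroendocrine regulators 7 were tested in the time course, and 0, 2, 0 and 3 were called lower on days 3, 5, 7 and 10, the last being Insm1 (-2.49), Pax4 (-1.46) and Neurog3 (-1.02). Their median response was 0.05 on day 7 and -1.32 on day 10. Levels were low by then. All 12 summed to 44.0 to 50.1 CPM with EtOH on day 3. On day 10 they summed to 5.96 to 9.28 CPM with EtOH and 2.93 to 4.17 CPM with 4-OHT. In EtOH alone 7 of 7 were called lower from day 3 to day 10, against 22.4% of all genes. In the 5-line experiment 6 of 12 were called lower, in Wnt3-CM 3 of 3, in D173A 7 of 12 with 1 higher, and in IECs 0 of 12. After loss of CDK8 alone 0 of 12 were called lower and after loss of CDK19 alone 3 (background 2.39%). In C57BL/6, 7 were called higher and 1 lower than in VillinCreERT2 (15.5% and 10.9% of all genes). The 12 summed to 287 to 292 CPM in VillinCreERT2 and 629 to 689 CPM in C57BL/6. They summed to 449 to 462 CPM in Cdk8fl/fl/Cdk19-/- and 192 to 201 CPM in combined-loss organoids.

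Of 9 enterocyte markers, 7, 3, 1 and 1 were called lower on days 3, 5, 7 and 10, while 0, 1, 1 and 3 were called higher, against 6.42%, 8.58%, 9.00% and 8.86% of all genes. Their median went from -1.20 on day 3 to 0.03 on day 10, and the response became higher between these days for 6 of 9 (background 13.9%). In the 5-line experiment 1 was called lower and 2 higher (11.5% of all genes higher), after loss of CDK8 alone 5 lower, and in IECs 0 in either direction.

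For endoplasmic reticulum genes that Xbp1 is known to activate, the counts were near or below the shares of all genes. Of 14, 1 was called lower on day 3 (Herpud1, -0.69) and 0 on days 5, 7 and 10, in the 5-line experiment, in D173A and in IECs, and 1 was called higher in Wnt3-CM, against 9.45% of all genes. Their medians were -0.05 on day 3 and 0.08 on day 10. Of 6 granule and secretory genes linked to Bhlha15, 4 were tested in the time course, and 0, 1, 1 and 2 were called lower on days 3, 5, 7 and 10, the last being Cpe (-1.27) and Tmed6 (-1.11). In the 5-line experiment, where Bhlha15 was down 2.76-fold, 0 of 5 were called lower (median -0.11). In D173A 1 of 5 was called, Tmed6 at -3.11, while 3 of the 5 had positive fold changes and the median was 0.19. In Wnt3-CM 1 of 4 was called lower, and in IECs 1 of 5, Rab3d at -0.61.

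The genes whose level followed Atoh1 most closely over the 24 time course libraries, out of 9432 with a mean of at least 10 CPM, were Myc (r = 0.987), Pla2g2a (0.976), Carm1 (0.973), Tox3 (0.970) and Pprc1 (0.969). Over the 15 libraries of the 5 lines their correlations with Atoh1 were 0.918, 0.847, 0.740, 0.807 and 0.638. Among the factors, Foxa3, Creb3l1 and Sox9 ranked 17th, 19th and 20th in likeness to Atoh1, each with r = 0.956, and Spdef had 0.897. Bhlha15, the earliest to be called, had 0.854 in the time course and 0.964 in the 5 lines. Xbp1 had -0.749 and -0.01. These correlations describe libraries that share days, lines and treatments.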

How the data were processed

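RNA-Seq libraries (poly(A), 100 bp paired ends) from mouse organoids and IECs were analysed as the gene counts that the authors deposited, whole numbers per gene without normalization. The submitters' processing notes name STAR 2.5.2, featureCounts, Subread 1.6.3 and mm10. Of 63 samples, 57 libraries in 19 groups were used. The 6 IEC columns whose names the labels do not explain were not used, so the D173A IECs were not analysed here. Wnt3-CM and D173A columns were matched to groups by name or, for D173A, as the remaining columns of their table, and carry no replicate number of the labels.

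Groups were compared in R 4.3.3 with edgeR 4.0.16 (filterByExpr, TMM scaling, robust quasi-likelihood F test, Benjamini-Hochberg adjustment over all genes tested). The 5-line and time course tables were each fitted whole, the others by their own 6 libraries, and contrasts with Wnt3-CM or D173A jointly over 12 libraries. Calls needed an adjusted p below 0.05 and a fold over 1.5. SE is the log2 fold change over the square root of F. Intervals are 95% intervals. Alternatives used DESeq2 1.42.0 and limma 3.58.1, other filters and upper quartile scaling, a replicate term, and each library left out in turn. The fits were tested on simulated data.

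The 10 factors and the gene lists were chosen with earlier results of these data known. All factors are named in every comparison, and from each other list the counts and, in some comparisons, at most 3 called genes with the largest change. Likeness to Atoh1 was Pearson's r on log2 CPM over the time course. Gene identifiers matched GENCODE vM21 for 53861 of 54752. Protein sequences were not used here.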

Additional observations from a re-analysis of the deposited data

Results flagged for a closer look

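Responses that differed between conditions by a test of the difference itself are listed here by their size on the log2 scale. The response to combined loss was lower than the sum of the separate losses for Bhlha15 (-1.15) and Sox4 (-0.69). Between day 3 and day 10 of the time course the response to 4-OHT became lower for Atoh1 (-1.26), Gfi1 (-0.74), Bhlha15 (-1.13), Creb3l1 (-0.80), Foxa3 (-1.08), Sox9 (-1.32) and Sox4 (-0.92). The response of Bhlha15 on day 10 was higher in Wnt3-CM than in plain medium (0.87), where its EtOH level also differed. Medium and any separate preparation of these cultures cannot be told apart. The response of Atoh1 on day 7 was higher in D173A than in Cdk19-/- organoids (0.70). The Gfi1 difference lost its call without 4-OHT replicate 2 of day 10 (-0.65, adjusted p = 0.0502 by edgeR) and the Atoh1 difference in D173A without 4-OHT column 1 (0.57, under the fold). With 3 libraries a group, Dixon's comparison of the highest or lowest library with the rest was not made.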

How the results depend on the processing

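Of 1190 log2 fold changes of a factor in a comparison recomputed with another filter, scaling, tool or model, 1158 kept their direction and their side of the threshold, 7 lost a call, 14 gained a call and 11 changed sign. Of 1590 with a library left out, 1489 kept both, 21 lost a call, 27 gained a call and 53 changed sign. The changes of sign concerned values that were not called. Upper quartile scaling gave 0.031 for Xbp1 on day 5, -0.027 for Xbp1 in D173A, 0.0016 for Sox9 between Wnt3-CM and plain medium, -0.020 for Foxa3 between D173A and day 7, -0.0076 for Gfi1 after loss of CDK19 alone and 0.049 for Foxa3 between the control lines. At least 10 counts per library gave 0.022 for Xbp1 on day 5 and -0.0043 for Sox4 between Wnt3-CM and plain medium, the latter -0.0033 with DESeq2. A fit of the 6 libraries compared gave 0.0066 for Xbp1 on day 5, and no filter -0.0068 for Foxa3 between D173A and day 7. With a library left out, values after loss of CDK8 alone were -0.029 to 0.19 for Gfi1, -0.061 to 0.0026 for Bhlha15, -0.055 to 0.075 for Sox9 and -0.15 to 0.085 for Sox4. They were -0.20 to 0.27 for Gfi1 after loss of CDK19 alone, and -0.052 to 0.10 for Creb3l1 and -0.076 to 0.0070 for Foxa3 between the control lines. Xbp1 on day 5 was -0.039 to 0.0027, and the changes between days were -0.015 to 0.21 for Creb3l4 from day 3 to 5, -0.29 to 0.016 for Gfi1 from day 5 to 7, -0.15 to 0.14 for Foxa3 and -0.053 to 0.18 for Sox9 from day 7 to 10, and -0.080 to 0.011 for Sox4 in EtOH. Between Wnt3-CM and plain medium they were -0.13 to 0.033 for Spdef, -0.082 to 0.0024 for Xbp1, -0.16 to 0.078 for Sox9 and -0.066 to 0.057 for Sox4. Xbp1 in D173A was -0.013 to 0.063, and between D173A and day 7 Foxa3 was -0.10 to 0.17, Sox9 -0.023 to 0.16 and Sox4 -0.041 to 0.15.

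Among counts of factors called, those in IECs moved most, from 3 lower to 6 without the filter, 5 with at least 10 counts per library, 5 with DESeq2, 1 with upper quartile scaling and 0 to 5 with a library left out. The cause was not tested. Between C57BL/6 and VillinCreERT2 organoids 1 factor was called higher with upper quartile scaling. With a library left out, 0 to 1 factors were called lower after loss of CDK19 alone and between the day 5 and day 7 responses, and 0 to 1 higher in D173A against day 7. Same-numbered libraries were taken to share only a number, since in none of 10 comparisons did every pair's deviations correlate above 0.1 (lowest pair -0.41 to 0.044). With the replicate number as a block, 0 factors were called lower in IECs, and no other count of factors called moved by over 1.5 times. For Wnt3-CM, D173A and their contrasts with the time course no block was fitted, since their columns carry no replicate number of the labels.

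Groups had 3 libraries, and the labels do not say whether organoid libraries came from separate cultures, so p-values measure the spread between these libraries, technical or not. Depth limits Gfi1 most, with 32 counts in its lowest library. Tables were scaled separately.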
